A study of Mus musculus with 3 samples.

Results

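Apoe and 9 other genes of lipid handling (Abca1, Abcg1, Lpl, Cd36, Plin2, Fabp4, Fabp5, Lipa and Trem2) were followed in single myeloid cells of mice carrying B16F10 melanoma. The genes were chosen by symbol, and all 10 were present among the 27998 gene rows of the count matrices. Single-cell RNA was counted in 3 libraries with 1 library per group and 22944387 to 42493416 UMIs (counted RNA molecules) in each. The first library was blood and the second tumor of control C57BL/6J mice, titled WT, and the last was tumor labelled treg-depleted on C57BL/6J, titled FoxP3 DTR. All of them came from animals with a subcutaneous B16F10 tumor, a transplantable mouse melanoma line, so no library of a tumor-free mouse stood beside them. FoxP3 DTR is the usual name of an allele that places the diphtheria toxin receptor under the Foxp3 gene, whose product marks regulatory T (Treg) cells. The controls carry no such label, so depletion, allele, mouse and library cannot be told apart. Age, sex, the number of animals per library and any toxin given to controls were not given in the sources used here.

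Apolipoprotein E is the protein of lipoprotein particles that lets cells take them up, and macrophages secrete it together with cholesterol. Cholesterol leaves the macrophage through the transporters ABCA1 and ABCG1, whose genes, like Apoe, are known targets of the sterol-sensing LXR receptors. Fatty acids enter through CD36 or after lipoprotein lipase (Lpl) has cleaved triglycerides, are carried in the cytoplasm by FABP4 and FABP5, and are stored in droplets coated with perilipin 2 (Plin2). Lysosomal acid lipase (Lipa) frees cholesterol and fatty acids from lipoproteins that were taken in. TREM2 is a lipid-binding surface receptor known from lipid-laden macrophages in tumors, fat and the brain.

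The sort kept CD45-positive cells with CD11b, CD11c or both, and removed cells with CD90, NK1.1, Ly6G, B220 or SigF, which takes out most T, NK, B and neutrophil cells. Barcodes were taken as cells from 1000 UMIs and 400 genes upward, if mitochondrial UMIs made up no more than 10%. They numbered 5550 in control blood, 4443 in tumor of controls and 4434 in the Treg-depleted tumor, with medians of 3550, 6452 and 3820 UMIs. Library pairs shared 27 to 36 of these barcodes. Cells were classed by marker genes that left out the 10 lipid genes, with thresholds set after the data had been seen. The monocyte-to-macrophage lineage held 2735, 3001 and 3726 cells, which were those left once all other classes and the unassigned cells were set apart. Entry to it required no minimum of a monocyte or macrophage marker score. In the Treg-depleted lineage the median classical monocyte score was -0.26 and the median macrophage score -0.03. The lineage was divided by the difference between a macrophage and a classical monocyte score into monocyte-side, intermediate and macrophage-side cells. These are ranges of a score rather than types, and 6.07%, 12.8% and 21.4% of the lineage cells lay within 0.1 of a boundary. Intermediate cells had median classical monocyte and macrophage scores of 0.04 and 0.04 in the control tumor. In the Treg-depleted tumor these were -0.24 and -0.23, so its intermediate cells were lower in both marker sets. Ratios of the intermediate class between the tumors therefore compare cells unlike in markers. A further 12.5%, 19.9% and 9.11% of cells came near or met the limits of a class outside the lineage without being named for it and were left unassigned. Cells that met them stayed unnamed if they met more than 1 class or had a monocyte or macrophage score of 0.3 or more. In the control tumor the unassigned cells had a median of 10334 UMIs, above the library's 6452, and a median macrophage score of 0.66. In lineage cells the summed level of 7 T cell markers was 0.314 to 1.18 CPM (UMIs of a gene per 1000000 of its class), with Cd3e at 0 in all 3 libraries, that of 7 melanoma markers 9.02 to 30.02 CPM, and that of 6 fibroblast markers 0.376 to 2.41 CPM. All levels below are such CPM over a class, with 95% intervals that cover counting error only, since 1 library per group leaves no spread between mice and allows no test.

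The promoter sequences of 4 members are printed, picked with their levels known. On the macrophage side Apoe was lower and Cd36 and Abca1 were higher in the Treg-depleted tumor. Plin2 differed little there (log2 ratio 0.14), was high in both tumors and low in blood. The stretches run from 250 bases before to 50 bases after 1 RefSeq start per gene on GRCm38.p6. For Apoe 3 starts are listed, and only 1 is shown. The Cd36 stretch lies inside the annotated gene (chr5:17781690-17888801) and not at its 5' end. Apoe covers chr7:19699139-19699438, Cd36 covers chr5:17835847-17836146, Abca1 covers chr4:53159846-53160145 and Plin2 covers chr4:86670010-86670309, all on the minus strand. Capitals mark CACGTG, the core of an E-box, and AGGTCA or its reverse complement TGACCT, the repeat unit bound by nuclear receptors.
Apoe: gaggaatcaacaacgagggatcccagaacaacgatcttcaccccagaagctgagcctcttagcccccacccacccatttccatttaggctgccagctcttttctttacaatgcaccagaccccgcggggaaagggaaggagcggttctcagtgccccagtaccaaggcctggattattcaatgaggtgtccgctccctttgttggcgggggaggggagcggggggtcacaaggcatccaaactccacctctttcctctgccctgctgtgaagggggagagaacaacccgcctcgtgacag
Cd36: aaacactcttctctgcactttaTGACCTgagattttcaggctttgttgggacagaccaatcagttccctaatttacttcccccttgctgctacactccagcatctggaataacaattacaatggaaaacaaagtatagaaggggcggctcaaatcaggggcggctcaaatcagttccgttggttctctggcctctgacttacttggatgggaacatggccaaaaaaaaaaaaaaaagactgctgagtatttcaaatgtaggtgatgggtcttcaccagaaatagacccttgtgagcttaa
Abca1: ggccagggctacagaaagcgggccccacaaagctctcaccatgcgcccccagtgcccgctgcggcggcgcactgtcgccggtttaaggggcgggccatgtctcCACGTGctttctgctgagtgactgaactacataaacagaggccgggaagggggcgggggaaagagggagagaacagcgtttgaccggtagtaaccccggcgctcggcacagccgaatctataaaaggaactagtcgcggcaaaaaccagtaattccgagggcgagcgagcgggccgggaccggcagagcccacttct
Plin2: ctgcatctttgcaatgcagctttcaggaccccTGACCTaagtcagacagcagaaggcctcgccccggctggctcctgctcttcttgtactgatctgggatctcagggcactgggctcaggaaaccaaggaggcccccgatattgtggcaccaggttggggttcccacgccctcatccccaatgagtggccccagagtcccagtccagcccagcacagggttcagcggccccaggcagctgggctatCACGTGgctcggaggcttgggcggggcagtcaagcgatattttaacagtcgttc
Both strands were searched. CACGTG stood at position -147 of Abca1 and -4 of Plin2, relative to the start, and AGGTCA in its reverse form stood at -228 of Cd36 and -218 of Plin2. Neither was found in these 300 bases of Apoe. Among 27025 mouse promoters of the same length, 7.24% held CACGTG and 16.0% held AGGTCA. The RefSeq table matched 6 of the 10 members, the others being Lipa, with neither of these motifs, and Trem2, with the reverse form of AGGTCA at -68. A match describes letters and does not show that a factor binds there.

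Apoe (chr7:19696109-19699188, minus strand, GRCm38) was abundant in blood monocytes and in macrophages of the control tumor, and scarce in all classes of the Treg-depleted tumor. Over the monocyte-to-macrophage lineage its level was 3543 CPM in control blood (interval 3508 to 3579), 4223 CPM in the control tumor (4197 to 4249) and 157 CPM in the Treg-depleted tumor (151 to 163). Blood and control tumor thus lay close together and the Treg-depleted tumor stood far below both. The control tumor was 26.9-fold above the Treg-depleted tumor (interval 25.9 to 28.0), a log2 ratio of -4.75 for Treg-depleted over control. Of 10628 genes with at least 20 UMIs in either library, 0.0282% had a lower ratio. With every cell thinned to 1000 UMIs, Apoe was detected in 65.9% of lineage cells of blood, 65.7% of those of the control tumor and 8.80% of those of the Treg-depleted tumor. Without thinning the shares were 80.5%, 90.3% and 19.0% at median depths of 3800, 6098 and 3876.5 UMIs.

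Apoe was unevenly spread over the classes of every library. In control blood the order ran from intermediate cells at 6275 CPM and nonclassical monocyte-like cells, the patrolling monocytes, at 5249 CPM to monocyte-side cells at 3292 CPM. Below these came B cell-like cells at 1358 CPM, neutrophil-like cells at 959 CPM, NK cell-like cells at 371 CPM and cDC2-like cells at 325 CPM. Only the intervals of the last pair overlapped. In the control tumor macrophage-side cells stood at 5012 CPM (4979 to 5045), nonclassical monocyte-like cells at 3151 CPM (3034 to 3273), intermediate cells at 1959 CPM (1909 to 2010) and monocyte-side cells at 1922 CPM (1874 to 1972), the last pair overlapping. Dendritic classes of that tumor held 661 CPM in CCR7 dendritic cell-like, 340 CPM in cDC1-like and 211 CPM in cDC2-like cells. The Treg-depleted tumor had its highest Apoe level in monocyte-side cells, 231 CPM (216 to 247), then 162 CPM in nonclassical monocyte-like (121 to 213), 151 CPM in macrophage-side (142 to 160) and 103 CPM in intermediate cells. Its cDC1-like cells held 61.2 CPM, its cDC2-like cells 12.2 CPM from 3 UMIs, and its 63 neutrophil-like cells 0 UMIs, which allows up to 21.0 CPM when the limit is set at 3 counts.

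Free RNA was gauged from barcodes of 1 to 10 UMIs, where Apoe stood at 3405 CPM in blood, 5104 CPM in tumor of controls and 224 CPM (164 to 297) in the Treg-depleted tumor. Each of these lay near or above the level in lineage cells of the same library, and that of the Treg-depleted tumor exceeded its lineage level of 157 CPM. NK cell-like and cDC2-like cells of blood differed from its lineage beyond counting error. After thinning, 14.6% of blood NK cell-like cells (unthinned 21.2%) and 12.2% of cDC2-like cells (unthinned 28.0%) had an Apoe UMI, against 64.9% of monocyte-side cells (unthinned 80.2%). Median depths of these classes were 1436, 3986.5 and 3814.5 UMIs. In the control tumor the thinned share was 15.8% in cDC2-like cells (unthinned 61.8%, median 6350 UMIs). In the Treg-depleted tumor it was 4.26% of 47 cDC2-like cells, at a median of 5173 UMIs. How much of the low Apoe level there came from free RNA was not tested.

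**Figure D1:**
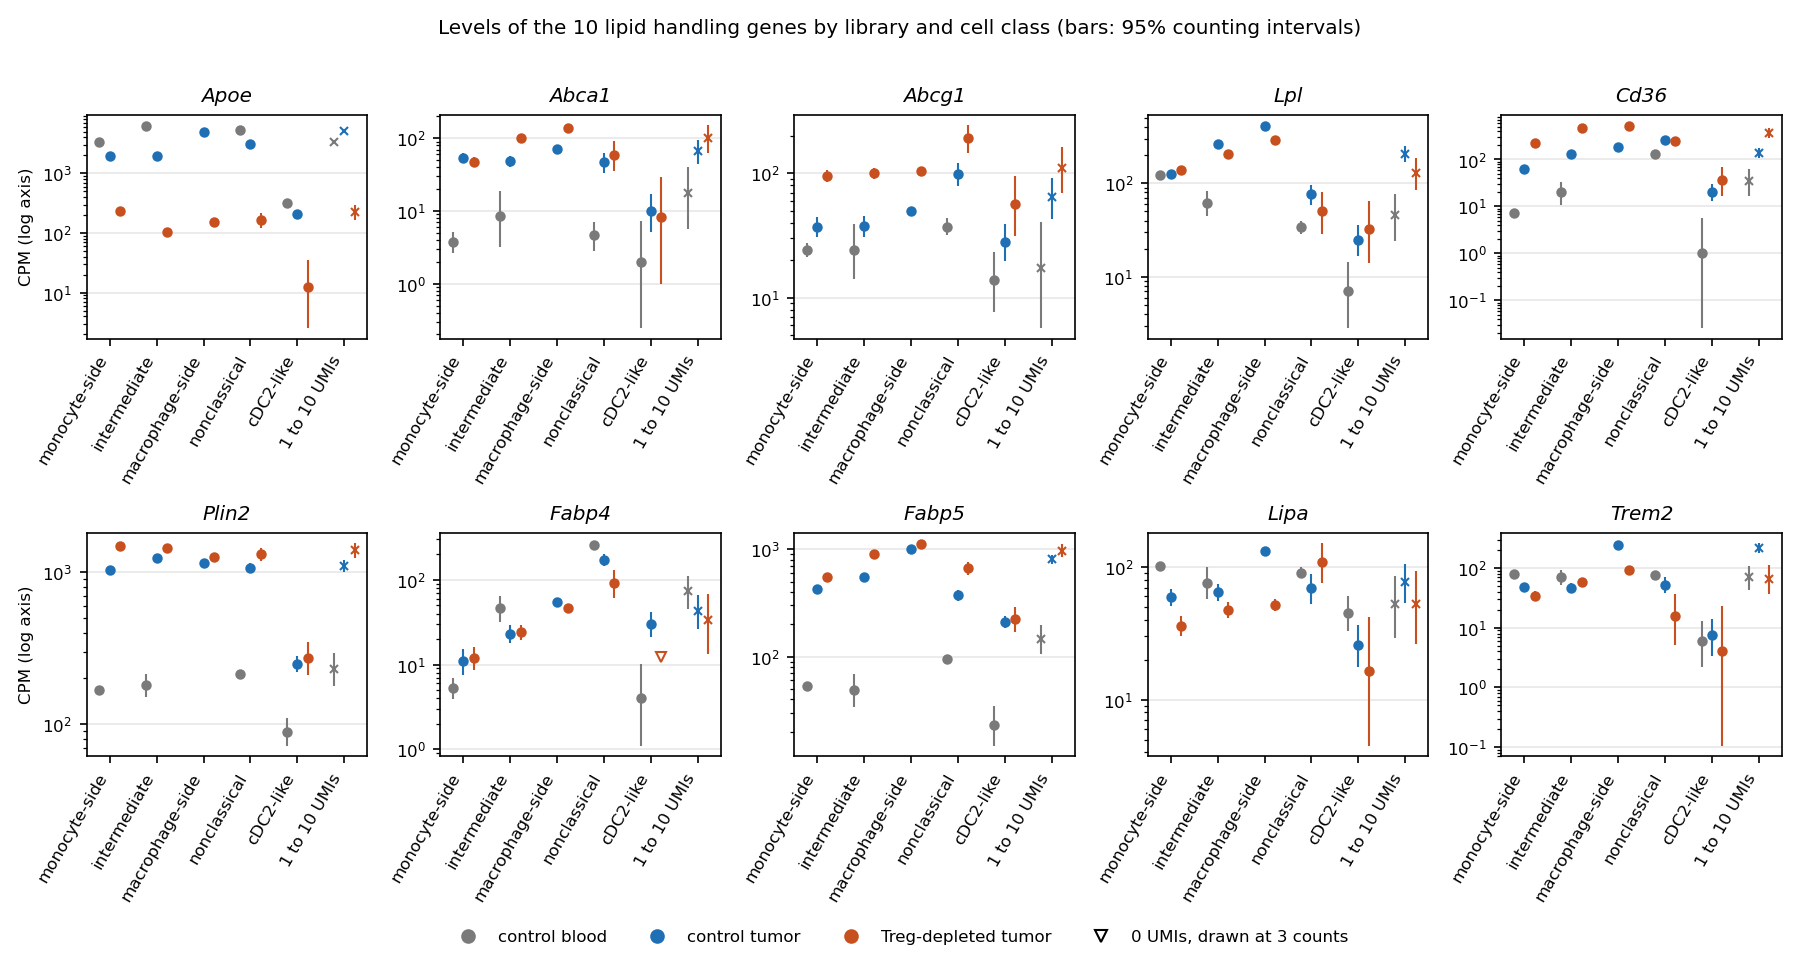
CPM on log axes for the 10 genes by class, with 1 point per library (grey control blood, blue control tumor, orange Treg-depleted tumor), crosses for barcodes of 1 to 10 UMIs, bars for 95% counting intervals and open triangles for 0 UMIs drawn at 3 counts. Apoe in the Treg-depleted tumor lies at 151 to 231 CPM on the macrophage and monocyte sides, below both control libraries in each class shown, whereas Plin2 lies above 1000 CPM in both tumors and near 168 CPM in blood monocyte-side cells.

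Between the tumors the 10 genes went both ways. In the whole lineage 2 were at least 2-fold higher in the Treg-depleted tumor, Cd36 and Abcg1, beside 8.09% of all 10628 genes tested. Another 3, Apoe, Trem2 and Lipa, were at least 2-fold lower, beside 7.83% of all genes, and 5 lay between. The median log2 ratio of the members was -0.20 and that of all genes -0.05. Macrophage-side cells gave the same division, 2 higher beside 8.92% and 3 lower beside 8.91% of genes. In intermediate cells 3 were higher, with Abca1 added, beside 11.8% of genes, and Apoe alone was 2-fold lower, beside 6.96%. On the monocyte side the same pair was higher, beside 8.55% of genes, and only Apoe was 2-fold lower, beside 4.70% of genes. All 10 members passed the minimum of 20 UMIs in these comparisons.

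The Apoe difference was present in the 3 lineage classes and in nonclassical monocyte-like cells, which lie outside the lineage as counted here, and it varied in size. Macrophage-side cells stood 33.2-fold lower in the Treg-depleted tumor (interval 31.3 to 35.2), intermediate cells 19.1-fold lower (17.3 to 21.0), nonclassical monocyte-like cells 19.4-fold lower (14.7 to 26.0) and monocyte-side cells 8.31-fold lower (7.74 to 8.93). The summed level of macrophage markers was lower in the Treg-depleted tumor as well, and single markers differed by unlike amounts. All 10 macrophage markers reached 20 CPM in the lineage of both tumors, with none at 0, and their summed level was 9037 CPM in the control against 3102 CPM in the Treg-depleted tumor. C1qa, a complement subunit typical of mature tissue macrophages, stood at 2419.6 CPM in control and 526 CPM in Treg-depleted macrophage-side cells. Csf1r, on the same marker list, differed less, with 242 CPM in control and 198 CPM in Treg-depleted macrophage-side cells. The median macrophage score of macrophage-side cells was 0.88 and 0.31. Intermediate cells of the Treg-depleted tumor were lower in both the macrophage and the monocyte score, as given above. The 9 classical monocyte markers went the other way, 4330 against 7089 CPM. The part of these macrophage and monocyte markers in the Apoe difference was not tested. Monocyte-side C1qa stood at 45.6 CPM (control) and 25.4 CPM (Treg-depleted), beside the 8.31-fold Apoe difference of this class. Free RNA also held less Apoe in the Treg-depleted library, and its part on the monocyte side was not tested either. Neutrophil markers, 10 listed, summed to 90.7 CPM in the control lineage, with Camp at 0, and to 232 CPM in the Treg-depleted lineage.

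**Figure D2:**
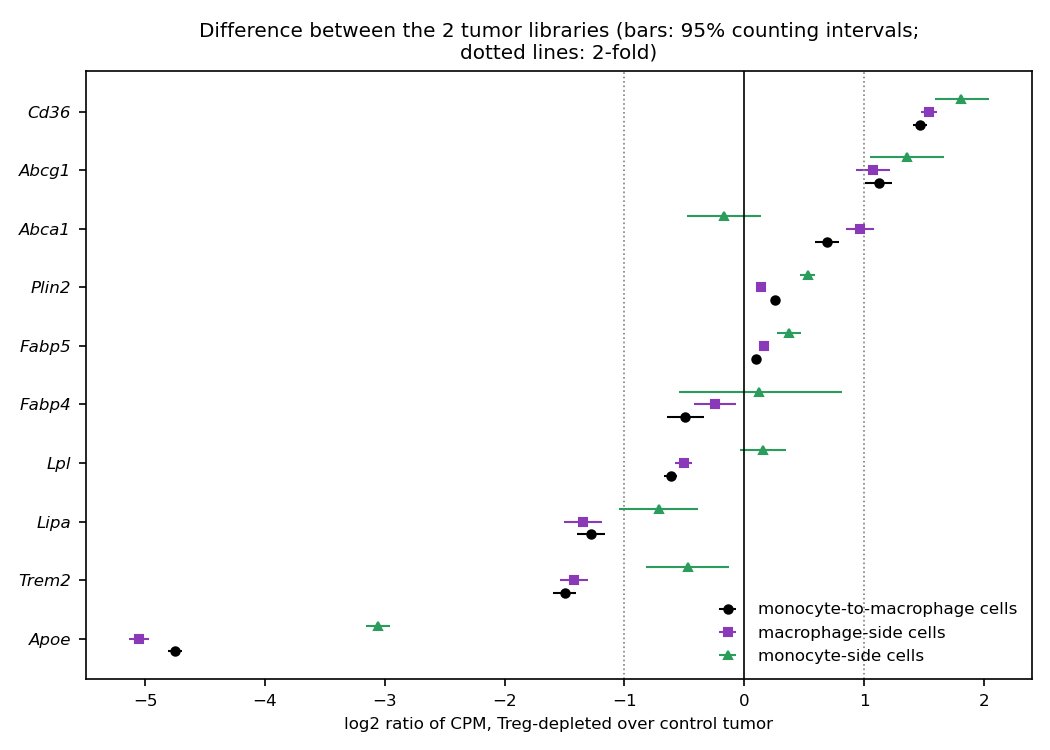
Log2 ratio of CPM, Treg-depleted over control tumor, for each gene in the whole lineage (circles), macrophage-side cells (squares) and monocyte-side cells (triangles), with 95% counting intervals and dotted lines at 2-fold. Apoe lies apart at -3.06 to -5.05, and Cd36 and Abcg1 lie to the right of the 2-fold line in the 3 sets of cells.

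Among the receptors, Trem2 was lower on the macrophage side of the Treg-depleted tumor and Cd36 was higher in all 3 lineage classes. Trem2 (chr17:48346401-48354147) stood in macrophage-side cells at 245.7 CPM in the control tumor (238 to 253) against 91.8 CPM in the Treg-depleted tumor (85.3 to 98.8), 2.67-fold lower. In monocyte-side cells it stood at 79.0 CPM in blood, 48.1 CPM in the control tumor against 34.7 CPM in the Treg-depleted one, the last 2.28-fold below blood. Intermediate cells went the other way, 46.8 CPM of Trem2 in the control against 57.8 CPM in the Treg-depleted tumor, a log2 ratio of 0.30 whose interval reached just past 0 (-0.0025 to 0.61). Barcodes of 1 to 10 UMIs held 69.7, 217 and 66.6 CPM of Trem2 in the respective libraries. Cd36 (chr5:17781690-17888801), the scavenger receptor and fatty acid carrier, stood in macrophage-side cells at 180.4 CPM in the control against 526 CPM in the Treg-depleted tumor, a log2 ratio of 1.54 (1.48 to 1.61). In monocyte-side cells its level was 7.13 CPM in blood, 63.9 CPM in the control tumor against 224 CPM in the Treg-depleted one, so the 3 libraries stood in steps whose intervals did not overlap. After thinning, Cd36 was detected in 0.731%, 11.7% and 29.8% of lineage cells (unthinned 2.89%, 41.1% and 55.7%), against 0.394% of blood cDC2-like cells. In nonclassical monocyte-like cells Cd36 was at 263 and 247 CPM in control and Treg-depleted tumor, a log2 ratio of -0.09 (-0.48 to 0.28), and Trem2 at 52.6 and 15.6 CPM, the latter from 5 UMIs.

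The cholesterol exporters were higher on the macrophage side of the Treg-depleted tumor, unlike Apoe. Abca1 (chr4:53030787-53159895), which loads cholesterol onto lipid-poor apolipoproteins, stood in macrophage-side cells at 72.0 CPM in the control tumor (68.1 to 76.1) and 140.5 CPM in the Treg-depleted tumor (132 to 149), a log2 ratio of 0.97. In monocyte-side cells Abca1 stood at 3.77, 53.6 and 47.6 CPM in blood, control and Treg-depleted tumor, the tumors overlapping and blood far below. Abcg1 (chr17:31057675-31117988), which exports cholesterol to mature lipoproteins, stood in macrophage-side cells at 49.5 CPM in the control against 104.2 CPM in the Treg-depleted tumor, a log2 ratio of 1.07. Its monocyte-side levels were 24.3 CPM in blood, 37.2 CPM in the control tumor against 95.3 CPM in the Treg-depleted one. Abcg1 was thus higher on both sides of the lineage, and Abca1 on the macrophage side and in intermediate cells, where its log2 ratio was 1.06 (0.78 to 1.34).

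Both lipases were lower on the macrophage side of the Treg-depleted tumor. Lipa (chr19:34492318-34527474), the lysosomal enzyme, stood in macrophage-side cells at 131 CPM in the control tumor against 51.6 CPM in the Treg-depleted one, 2.54-fold lower (2.28 to 2.83). Its monocyte-side levels were 102 CPM in blood, 59.0 CPM in the control tumor (50.8 to 68.2) and 36.0 CPM in the Treg-depleted tumor (30.2 to 42.6). In nonclassical monocyte-like cells Lipa was at 69.0 CPM in control and 109 CPM in Treg-depleted tumor, a log2 ratio of 0.66 (0.02 to 1.29). Lpl (chr8:68880491-68907448), the secreted enzyme, differed by less: 410 CPM in control and 289 CPM in Treg-depleted macrophage-side cells, a log2 ratio of -0.51. In monocyte-side cells Lpl stood at 123 CPM in blood, 125 CPM in the control tumor against 139 CPM in the Treg-depleted one, and the tumor intervals overlapped (113 to 138 and 128 to 152).

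The fatty acid chaperones and the droplet coat differed by less than 2-fold between the tumors, by amounts that varied with the class. Fabp5 (chr3:10012548-10016607) stood in macrophage-side cells at 1006 CPM in the control against 1127 CPM in the Treg-depleted tumor, a log2 ratio of 0.16. The Fabp5 ratio was 0.37 on the monocyte side, 0.71 in intermediate cells (0.63 to 0.80) and 0.84 in nonclassical monocyte-like cells (0.58 to 1.09). Fabp5 has near-identical copies in the annotation, and reads could have been split between them upstream, so its counts are uncertain. Fabp4 (chr3:10204088-10208576) stood at 55.0 and 46.5 CPM in the same cells, a log2 ratio of -0.24 (-0.42 to -0.07). In nonclassical monocyte-like cells Fabp4 was at 171 and 90.6 CPM, a log2 ratio of -0.91 (-1.54 to -0.33). Plin2 (chr4:86648386-86670060) stood at 1149 and 1263 CPM, a log2 ratio of 0.14. On the monocyte side Plin2 differed more, 1035 CPM in the control against 1493 CPM in the Treg-depleted tumor, a log2 ratio of 0.53 (0.47 to 0.59). The Treg-depleted neutrophil-like cells, with 0 Apoe UMIs, held 1616 CPM of Plin2 (1415 to 1839), so this gene was not limited to the lineage.

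From blood to the control tumor, Abca1, Cd36, Fabp5 and Plin2 were several-fold higher in monocyte-side cells, and Apoe, Lipa and Trem2 were lower by less than 2-fold. The comparison shares the control tumor library with the one above. Across 9565 genes the median log2 ratio was -0.50, and ratios rescaled to that median follow in brackets. Abca1 had a log2 ratio of 3.83 (4.33), Cd36 of 3.16 (3.66), Fabp5 of 2.99 (3.49), Plin2 of 2.63 (3.12) and Fabp4 of 1.04 (1.54). These 5 members were at least 2-fold higher, beside 10.2% of all genes, and 0 members were 2-fold lower, beside 30.6% of all genes. Among all genes past 2-fold, 24.9% were higher before and 49.1% after rescaling, and 6 members were then higher with Abcg1 added. Apoe went from 3292 CPM in blood to 1922 CPM in the tumor, a log2 ratio of -0.78 (-0.28 rescaled). Lipa at -0.79 (-0.29) and Trem2 at -0.71 (-0.22) lay beside it, and Lpl was at 0.03 (0.52). Other settings moved some of these by over 1.5-fold: Fabp4, with 34 UMIs in the tumor class, gave 3.49 with classes from clusters and 4.44 with free RNA subtracted, and Lpl gave -0.67 with clusters. Free RNA subtracted also gave 4.54 for Abca1, 3.79 for Cd36 and -1.45 for Trem2, and thinning gave 3.23 for Abca1. In absolute level Plin2 went from 168 CPM (160 to 176) to 1035 CPM, and Fabp5 from 53.5 CPM (49.0 to 58.2) to 425 CPM (403 to 449).

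Against the same blood cells, monocyte-side cells of the Treg-depleted tumor gave log2 ratios, with values rescaled to the all-gene median of -0.50 in brackets, of 4.98 (5.47) for Cd36, 3.66 (4.16) for Abca1, 3.36 (3.86) for Fabp5, 3.15 (3.65) for Plin2, 1.97 (2.47) for Abcg1 and 1.17 (1.67) for Fabp4. Apoe stood at -3.83 (-3.33), Lipa at -1.50 (-1.01) and Trem2 at -1.19 (-0.69), so Trem2 was no longer 2-fold lower after rescaling. Thus 6 members were at least 2-fold higher, beside 12.4% of all genes, and 3 lower, or 2 after rescaling, beside 32.8% of all genes. Both tumors are set here against 1 blood library, so these ratios share it.

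Within blood, the monocyte subsets differed in their fatty acid genes. Nonclassical monocyte-like cells held 256.5 CPM of Fabp4 against 5.29 CPM in monocyte-side cells, 48.5-fold higher (36.7 to 65.3). Cd36 was 131.5 CPM against 7.13 CPM, 18.5-fold higher (14.4 to 24.0). Lpl went the other way, 33.9 CPM against 123 CPM, 3.62-fold lower (3.05 to 4.32). Thus 2 members were at least 2-fold higher, beside 3.85% of 9448 genes, and 1 was lower, beside 4.67%. Apoe was 1.59-fold higher in nonclassical monocyte-like cells (1.57 to 1.62), Fabp5 1.76-fold, and Trem2 was at 76.1 and 79.0 CPM with overlapping intervals. In the control tumor the nonclassical class, with 190 cells, still held more Fabp4 than the monocyte side, 171 CPM (144 to 201) against 10.9 CPM (7.56 to 15.2).

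Along the tumor lineage, most members were higher on the macrophage side, and Apoe went opposite ways in the 2 tumors. In the control tumor 7 members were at least 2-fold higher in macrophage-side than monocyte-side cells, beside 16.8% of 10147 genes, and 0 were lower, beside 4.78%. Their log2 ratios were 2.35 for Trem2, 2.34 for Fabp4, 1.71 for Lpl, 1.38 for Apoe, 1.24 for Fabp5 and 1.15 for Lipa, and Cd36 was 2.82-fold higher. In the Treg-depleted tumor 6 were higher, beside 10.7% of 9027 genes, and 0 lower, beside 3.71%: Fabp4 at 1.97, Abca1 at 1.56, Trem2 at 1.41, Cd36 at 1.23, Lpl at 1.05 and Fabp5 at 1.03. Apoe stood there at -0.62 (-0.74 to -0.49), from 151 CPM on the macrophage side against 231 CPM on the monocyte side. In neither tumor were these classes clearly above the Apoe level of free RNA in their library, given above. The part of free RNA in the Apoe ratios along the lineage was not tested. The median of all genes was 0.19 in each of these comparisons. Rescaling to it left 6 members higher in the control tumor, 4 in the Treg-depleted one, and took the share of higher calls among all genes from 77.8% to 64.4% and from 74.3% to 55.6%. Plin2 was at 0.15 in the control tumor and turned to -0.04 on rescaling, and it was at -0.24 in the Treg-depleted tumor.

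Clusters built without the 10 genes gave levels at a finer grain. They are named by number and leading genes, a rule added after the data had been seen. In blood, cluster 1, led by Eno3 and Cd300e, held 7426 CPM of Apoe, 551 CPM of Fabp4 and 265 CPM of Cd36, the highest level of each among the blood clusters. Cluster 2, led by Cd7 and Cd209a, held 172 CPM of Apoe. In the control tumor the complement-rich macrophage cluster 13 (Ccl8, C1qa; 2141 cells) held 5105 CPM of Apoe, 263 CPM of Trem2 and 401 CPM of Lpl. In the Treg-depleted tumor most lineage cells fell into a pair of clusters alike in Apoe and unlike in other lipid genes. Cluster 19 (Retnla, Ccl8, Mrc1; 1646 cells) and cluster 15 (Mmp12, Inhba; 1586 cells) held 115 and 116 CPM of Apoe. Lpl was 335 CPM in cluster 19 and 143 CPM in cluster 15, while cluster 15 was higher in Cd36 (647 against 391 CPM), Plin2 (1827 against 956 CPM), Fabp5 (1350.4 against 850.4 CPM) and Fabp4 (54.7 against 19.1 CPM). Abca1, at 130.0 and 134 CPM, and Trem2, at 78.5 and 75.6 CPM, had overlapping intervals between these clusters. Such clusters were drawn on expression, so the differences are a description.

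4 clusters had at least 50 cells in both tumors, and Apoe was lower in the Treg-depleted tumor in each. In cluster 15 Apoe stood at 3571 CPM in the 80 control cells and 116 CPM in the 1586 Treg-depleted cells, a log2 ratio of -4.94 (-5.07 to -4.82), while Cd36 was at 288 and 647 CPM. Cluster 14 gave 1966 and 283.5 CPM, a log2 ratio of -2.79, and cluster 12, named cDC2-like, 184.5 and 71.6 CPM, a log2 ratio of -1.37. Cluster 18, named neutrophil-like from its markers, held 1862 CPM in 60 control cells and 39.2 CPM in 240 Treg-depleted cells, at medians of 1459.5 and 1598.5 UMIs. A shared cluster did not hold the same mix of cells in both tumors. The gate placed 57 of 427 control and 89 of 236 Treg-depleted cells of cluster 12 in the lineage. For cluster 18 it placed 19 of 60 and 87 of 240 there. Cluster 14 was led by Plac8 and Ly6i in the control and by Spic and Gngt2 in the Treg-depleted tumor. The part of cell mix in these differences was not tested. Barcodes of 1 to 10 UMIs held 5104 and 224 CPM of Apoe in these libraries, and the part of free RNA in the cluster differences was not tested.

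**Figure D3:**
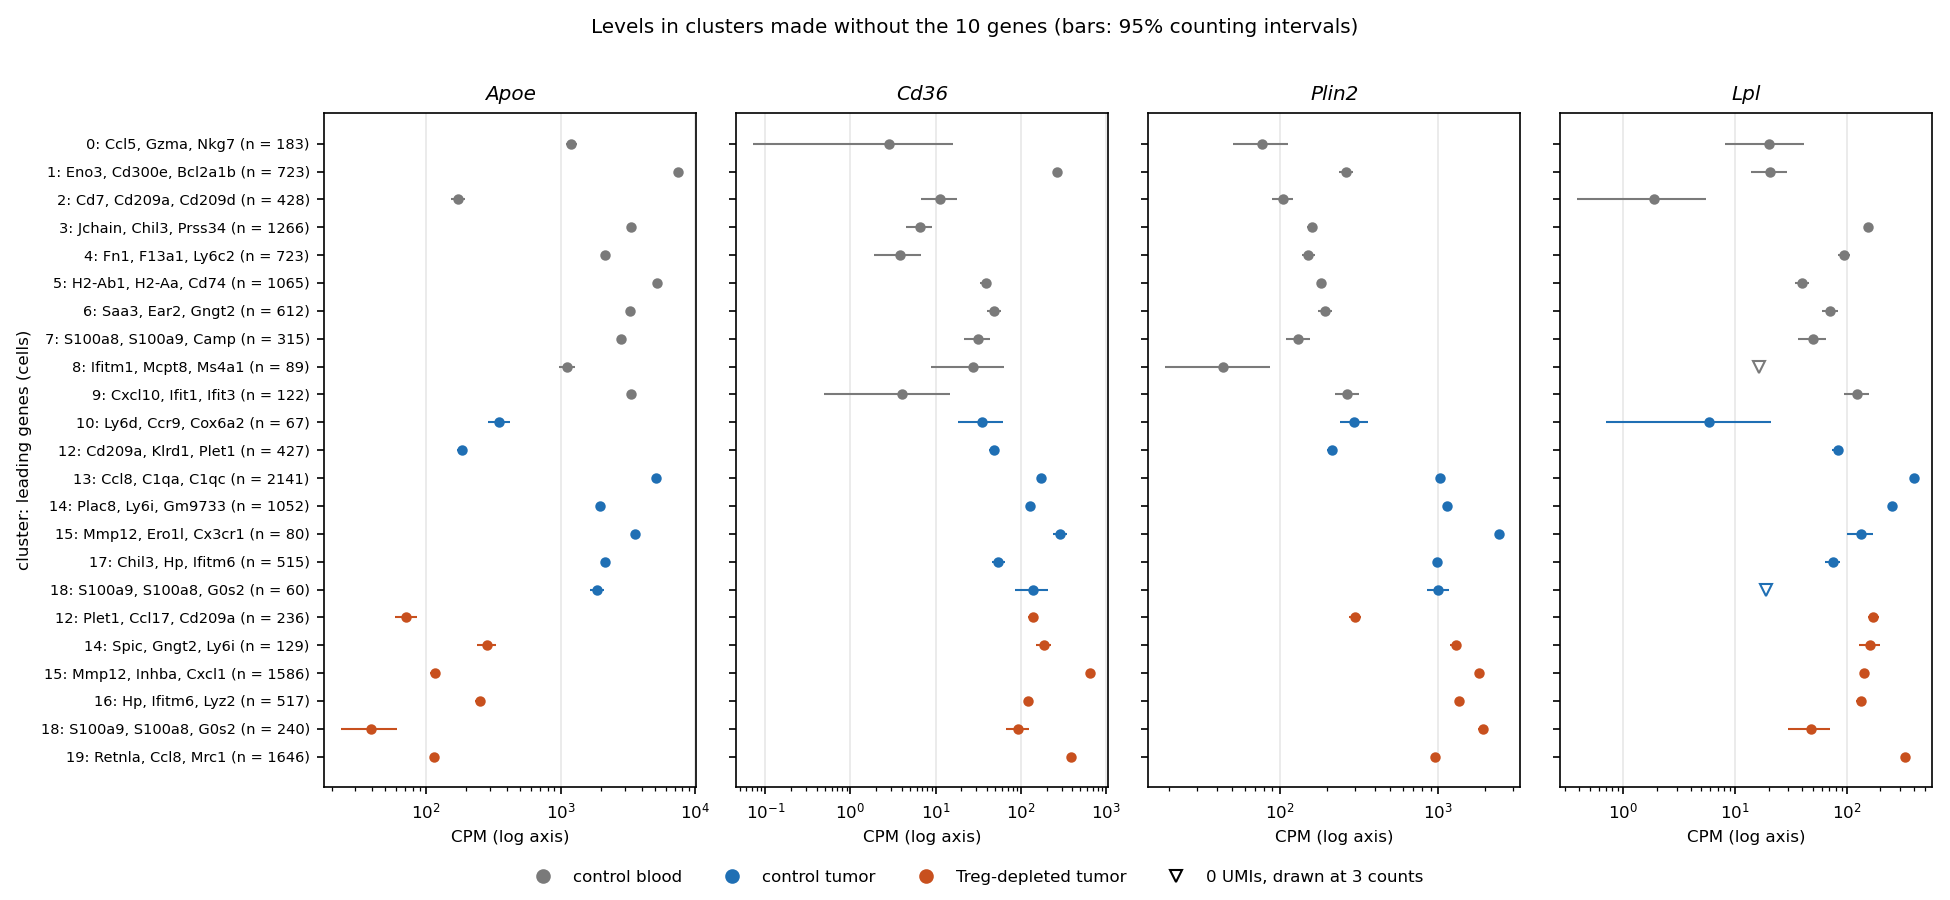
CPM on log axes of Apoe, Cd36, Plin2 and Lpl in each cluster (rows, with leading genes and number of cells), coloured by library, with 95% counting intervals and open triangles for 0 UMIs drawn at 3 counts. Every Treg-depleted cluster lies at 39.2 to 284 CPM of Apoe, while clusters 19 and 15 split in Lpl (335 and 143 CPM) and Plin2 (956 and 1827 CPM).

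From cell to cell, Sepp1, Ctss and Ftl1 moved most with Apoe, and S100a6, Tmsb10 and S100a11 most against it. Likeness was Pearson r on log2(UMIs + 1) of cells thinned to 1000 UMIs, taken within each library over its 2735, 3001 or 3726 lineage cells, which share a library and its free RNA. Among 1644 genes detected in at least 5% of cells of every library, the highest mean r was 0.16, so likeness was weak throughout. The leading 8 were Sepp1, a selenium transport protein, the lysosomal proteases Ctss, Lgmn and Ctsb, the ferritin chain Ftl1, the antigen presentation genes H2-D1 and Cd74, and Itm2b. The 8 lowest were S100a6, at a mean of -0.18, Tmsb10, S100a11, S100a4, Crip1, Actg1, S100a10 and Anxa2, among them genes of S100 proteins, an annexin and an actin. In single libraries the leading genes differed: Cd74 (0.23) and the class II genes H2-Ab1 and H2-Aa in blood, C1qa (0.36), C1qc (0.33) and C1qb (0.33) in the control tumor, and Lyz2 (0.15) in the Treg-depleted tumor. Of the other 9 members, Trem2 in the control tumor had the highest r, 0.24, and was at 0.03 in blood and 0.05 in the Treg-depleted tumor. The rest lay between -0.06 (Cd36, Treg-depleted tumor) and 0.11 (Fabp5, control tumor).

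**Figure D4:**
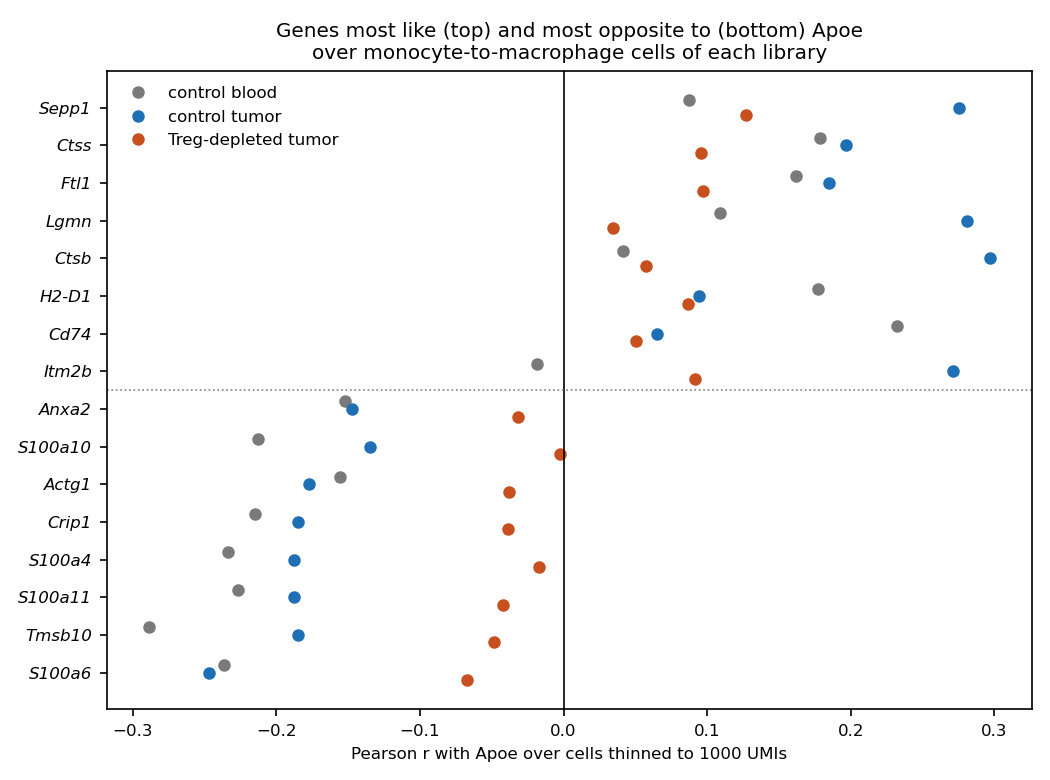
Pearson r with Apoe over thinned lineage cells for the 8 genes with the highest and the 8 with the lowest mean r, 1 point per library (grey control blood, blue control tumor, orange Treg-depleted tumor). Points of the Treg-depleted tumor, where 8.80% of thinned cells had an Apoe UMI, lie nearest to 0 for most genes, and Sepp1 reaches 0.28 in the control tumor.

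Cells were also divided by their own Apoe count. In the control tumor, lineage cells with 0, 1 or 2, and 3 or more Apoe UMIs after thinning (1029, 751 and 1221 cells) held 69.0, 124 and 249.8 CPM of Trem2 and 765, 1144 and 2211 CPM of C1qa. Fabp5 stood at 650.1, 799 and 916 CPM in the same cells, and Lpl at 323, 241 and 252 CPM. In the Treg-depleted tumor, cells with 0 Apoe UMIs numbered 3398 and those with 3 or more 58. Cd36 stood there at 496 CPM with 0 and 189.7 CPM with 3 or more, the latter from 11 UMIs. Ly6c2, a mark of classical monocytes, stood at 1023 and 1776 CPM in these cells, and C1qa at 268 and 741 CPM.

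Across 19 profiles, each a class of at least 50 cells in 1 library, the genes nearest to Apoe were mostly others. Likeness was Pearson r on log2(CPM + 5) over 5095 genes with at least 50 CPM in a profile, and profiles of 1 library share its depth and free RNA. Snapc5, a subunit of a small nuclear RNA transcription complex, led at 0.94, followed by Smpdl3a (0.88), a phosphodiesterase of the acid sphingomyelinase family, Camk1, Itm2b, Lyz2, Arpc4, Lsm10 and Hagh. The most opposite were Cox17, a copper chaperone, at -0.84, Tfrc, the transferrin receptor, at -0.84, 2010005H15Rik, Jak2, Fmnl2, Cystm1, Suco and Vhl. Apoe stood at 0 CPM in the profile of 63 Treg-depleted neutrophil-like cells, which held only 142918 UMIs. The highest levels of Tfrc and Vhl (63.0 CPM) and Fmnl2 (70.0 CPM) match small whole counts at that depth. The lowest level of Snapc5 (21.0 CPM) does so too. How far the r values at both ends rest on this 1 small profile was not tested. Among members Lipa had an r of 0.67, Trem2 of 0.57, Fabp4 of 0.45, Lpl of 0.21, Abca1 of -0.33 and Abcg1 of -0.32. Over the 12 tumor profiles alone these became 0.75, 0.76, 0.59, 0.61, 0.01 and -0.18, so Abca1 was not opposite to Apoe there.

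Neighbours of Apoe on chromosome 7 differed far less than Apoe. Of 11 other protein-coding genes within 100 kb, 7 had at least 20 UMIs in either tumor. Of these, 0 were 2-fold lower in the lineage of the Treg-depleted tumor, beside 7.83% of all genes. Another 0 were 2-fold higher, beside 8.09%. Among so few genes a count of 0 lies near these shares. Tomm40, the next gene, stood at 53.1 CPM in the control against 26.8 CPM in the Treg-depleted tumor, a log2 ratio of -0.99 (-1.15 to -0.83). Apoc1, an apolipoprotein gene of the same cluster, stood at 5.49 and 3.08 CPM, a log2 ratio of -0.83 (-1.34 to -0.35). Relb at -0.91 and Clptm1 at -0.80 were lower as well, and Clasrp at 0.17 was not. These genes were looked at after the values of Apoe were known.

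**Figure D5:**
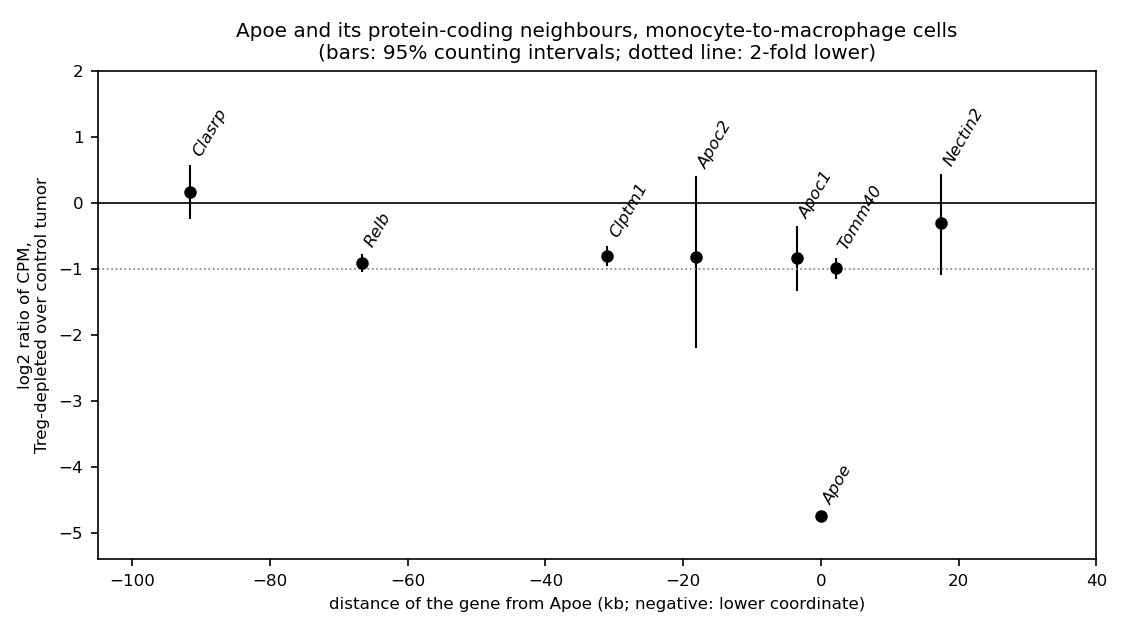
Log2 ratio of CPM in lineage cells, Treg-depleted over control tumor, against distance from Apoe in kb, for Apoe and the 7 protein-coding neighbours with enough UMIs, with 95% counting intervals and a dotted line at 2-fold lower. Apoe lies at -4.75, and the neighbours lie between -0.99 and 0.17.

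Other genes of the same pathways, with the 10 members left out, differed in both directions between the tumor lineages. Over all 10628 genes 8.09% were 2-fold higher and 7.83% lower, shares against which the counts below stand. In the cholesterol efflux and LXR list, 14 of 15 genes had enough UMIs, 0 were 2-fold higher and 4 were lower: Pltp, a phospholipid transfer protein (98.0 CPM in the control against 24.7 CPM in the Treg-depleted tumor, a log2 ratio of -1.99), Nr1h3, which encodes LXR alpha (-1.59), Scarb1 (-1.25) and Lpcat3 (-1.04). The median of the list was -0.47 beside -0.05 for all genes. Soat1, the enzyme that esterifies cholesterol for storage, was at 0.70 and Npc2, a lysosomal cholesterol carrier, at 0.43. Nceh1, which hydrolyses the esters, was at -0.65. The lysosomal lipid breakdown list had 0 of 13 higher and 4 lower, among them Pla2g15 at -1.46, Hexa at -1.22 and Asah1 at -1.17, and a median of -0.59. Psap, the sphingolipid activator precursor, was at 0.36 and Gla at -0.02.

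Genes of uptake, droplets and oxidation were more mixed; their counts of 0 to 3 genes per direction stand beside the same 8.09% and 7.83%. In the uptake list, 11 of 13 were tested, with 1 higher, the scavenger receptor Olr1 (22.0 CPM in the control against 99.6 CPM in the Treg-depleted tumor, a log2 ratio of 2.18), and 3 lower, Marco, Fabp3 and Angptl4, each under 5 CPM. Lrp1, a receptor for lipoprotein remnants, was at -0.01. In the droplet list, 12 of 16 were tested, with G0s2 (2.46) and Acsl4 (1.00) higher and Dgat1 (-1.51), which makes triglyceride, lower. Hilpda, a droplet protein that inhibits triglyceride breakdown, stood at 532 and 917 CPM, a log2 ratio of 0.78, and Acsl5 was at -0.93. In the oxidation list 14 of 14 were tested, with Rxra (1.30) and Cpt1a (1.04) higher and Pparg (-1.75) lower. Hadhb and Acadl, the members of that list above 50 CPM, were at -0.47 and -0.19. In a list of lipid-associated macrophage genes 0 of 12 were higher and 1 was lower, Cd63 at -1.16, with Ctsd at -0.89, Cd9 at 0.60 and Ctsl at 0.75. Medians of these 4 lists were -0.01, -0.30, -0.19 and -0.18. The lipid-associated list differed by class. On the macrophage side 0 were higher, beside 8.92% of all genes, and 3 lower (Cd63, Gpnmb and Ctsd), beside 8.91%. In intermediate cells 2 were higher (Ctsl and Itgax), beside 11.8% of all genes, and 0 lower, beside 6.96%. On the monocyte side 2 were higher (Itgax and Cd9), beside 8.55% of all genes, and 0 lower, beside 4.70%. The medians of the list were -0.31, 0.42 and 0.52 in this order. The whole lineage pools these classes in unlike shares, 1870, 501 and 630 cells from macrophage to monocyte side in the control against 1851, 1059 and 816 in the Treg-depleted tumor.

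From blood to the control tumor, where 10.2% of all genes were 2-fold higher and 30.6% lower without rescaling, the lipid-associated macrophage list had 9 of 12 genes at least 2-fold higher in monocyte-side cells and 0 lower and a median log2 ratio of 2.08 beside -0.50 for all genes. Spp1, the secreted protein osteopontin, went from 1.73 CPM (17 UMIs) to 782 CPM, a log2 ratio of 8.82, and Cd63 from 2.14 CPM to 125 CPM, a log2 ratio of 5.87. Among droplet genes Hilpda went from 7.23 to 326 CPM, a log2 ratio of 5.49, and 4 of 12 tested were higher and 1 lower. The efflux list had 2 of 13 higher and 2 lower, led by Nceh1 at 2.57 and Scarb1 at -1.79, and the lysosomal list 1 of 13 higher, Gla at 4.10, and 1 lower. In the uptake list 3 of 8 were higher, with Msr1 at 1.67, and 1 lower, Sorl1 at -1.17. The oxidation list had 1 of 14 higher, Slc25a20 at 1.76, and 4 lower, with Acadm at -1.54, a share near that of all genes.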

How the data were processed

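The authors deposited, per sample, a matrix of raw UMI counts for 27998 genes and all 737280 barcodes, with genes and barcodes in separate lists. Per the submitters' processing notes the reads were processed with Cell Ranger 1.2 against mm10. Chemistry was the 3' version of the Chromium kit, per the labels' protocols, so counts come from transcript ends.

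Cells, classes and levels were computed from these counts as described above, with Python 3.11.15, numpy 2.4.6, scipy 1.17.1, scanpy 1.11.5 and scikit-learn 1.9.0. Where a symbol had several identifiers, that with the most UMIs was used, leaving 27933 symbols. Intervals at 95% were exact Poisson for CPM, Clopper-Pearson for shares and exact conditional binomial for log2 ratios, and cover counting error only. Ratios used genes with at least 20 UMIs in either library and classes with at least 50 cells. A gene was counted as higher or lower past 2-fold. Classes needed at least 3 markers detected for a name outside the lineage, and a margin of 0.25 between the macrophage and monocyte scores. Doublets were scored from simulated pairs at 0.8% per 1000 cells, which marked 246, 158 and 157 cells. They were kept in the main values and removed in an alternative. Clusters used 2000 variable genes, 30 components, 20 neighbours and Leiden resolution 1.

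Genes named as like Apoe were the 8 highest and 8 lowest by r, and up to 5 per library. From each pathway list the largest and smallest ratios among genes of at least 50 CPM in a library were named, together with genes past 2-fold where 5 or fewer were. Some genes that this rule names are not reported here, though the lists' counts and medians include them. Members, lists and rules were chosen with earlier results of these data known. The alternatives were other cell filters, scalings, gates, depths, low-count limits and pseudocounts. The code was tested on simulated data.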

Additional observations from a re-analysis of the deposited data

Results flagged for a closer look

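Apoe went opposite ways along the lineage of the 2 tumors: its log2 ratio of macrophage-side over monocyte-side cells was 1.38 in the control tumor but -0.62 in the Treg-depleted one. Plin2 did so at a smaller size, with 0.15 in the control tumor but -0.24 in the Treg-depleted one. Rescaled to the median of all genes these became -0.04 and -0.43, so the opposite direction of Plin2 does not hold under that scaling. With 1 library per group, neither difference between the tumors was tested. The Apoe ratio of the Treg-depleted tumor set 151 CPM on the macrophage side against 231 CPM on the monocyte side. Neither level was clearly above that of free RNA in this library, whose part in the ratio was not tested.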

How the results depend on the processing

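The Apoe ratios below kept their direction in every alternative run. The log2 ratio of Apoe, Treg-depleted over control tumor, was -4.75 and became -4.85 with a UMI minimum set per library, -4.65 with at most 5% mitochondrial UMIs, -4.34 with thinned cells and -4.81 with cells near other classes kept, an alternative chosen after seeing the data. From blood to control tumor it was -0.78 and became -0.47 with classes from clusters, -0.67 with a margin of 0.5, -0.83 with cells near other classes kept, -0.28 with a median of gene ratios and -1.06 with free RNA subtracted. For the other 9 members, 81 of 81 alternative tumor ratios and 75 of 81 tumor-over-blood ratios kept their side of zero. Lpl was the exception (-0.67 with clusters), and Fabp4 from blood to tumor ranged up to 4.44 with free RNA subtracted. Between the tumors the margin of 0.5 left the pooled lineage at the same 3726 and 3001 cells. It could not move any tumor ratio, so its values among the 81 were fixed in advance. The median of gene ratios shifted every tumor ratio by the same 0.05. Shares of cells with an Apoe UMI were 80.5%, 90.3% and 19.0% without thinning. Genes 2-fold higher between the tumors numbered 860, and 541 with at least 100 UMIs, 2466 with at least 1 UMI and 1938 past 1.5-fold. Those lower numbered 832, and 467, 1911 and 2010. From blood to tumor 973 were higher, and 3187 with at least 1 UMI, 1468 past 1.5-fold and 1599 with a median of ratios, while 2928 were lower, and 1671 with at least 100 UMIs and 1656 with a median of ratios. With a pseudocount of 50 CPM, 5 of 8 highest and 5 of 8 lowest genes over profiles were shared, and without thinning 6 of 8 highest and 8 of 8 lowest genes over cells. No paired analysis was possible because each group had 1 library, and no library could be left out. At these depths a gene of a few CPM goes uncounted in most cells.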
